A study of Sus scrofa with 22 samples.

Results

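The cells described here are 31 of the 1647 single cells of a pig embryo series, those that the authors placed in the groups Endoderm_E11 (13 cells) and Endoderm_E12 (18 cells) of embryonic days 11 and 12. They were set against the 90 cells of Hypoblast_E10, the group of day 10. The comparison asks whether the later cells carry on the expression of the hypoblast or have that of a new, embryonic endoderm. Each cell was assigned by fitting the authors' deposited group means to the cells of the count table, and no marker gene was picked for this step. The sources used here do not say how the authors formed the groups. If they grouped cells by expression, tests between groups of the same day describe that grouping and are not independent of it.

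The hypoblast is the epithelium beneath the epiblast of the blastocyst. It spreads along the trophoblast, lays down basement membrane, takes up and secretes nutrients and proteins, and becomes the endoderm of the yolk sac. Definitive endoderm arises later from epiblast cells that pass through the primitive streak, and it forms the gut. Both endoderms use GATA4, GATA6, SOX17 and FOXA2, and they differ more in secreted plasma proteins, matrix genes and streak-derived factors such as CXCR4, GSC and LHX1.

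Polyadenylated RNA was measured with a modified Smart-seq2 protocol, in which each cell received a barcode, in 20 libraries of untreated pig embryos of days 0 to 14 and 2 libraries of pgEpiSC, stem cell lines from the day 10 epiblast. The Endoderm_E11 cells all came from library P8 and the Endoderm_E12 cells all from P10. All other cells of P8 were of E7 (38 in Hypoblast_E7, 13 in Epiblast_E7 and 9 in the trophectoderm group TE_E7). The sums of Hypoblast_E7 given below come from P8 and P9. The Hypoblast_E10 cells came from P5 (22 cells), P6 (33) and P16 (35). Other groups used here were Epiblast_E10 (48 cells in P15, 49 in P16), Ectoderm_E11 (11 in P6, 91 in P7), Ectoderm_E12 (26 in P10) and Defi_Endoderm, spelled as the authors spell it, which exists at E13 (5 in P18, 7 in P19) and E14 (13 in P11).

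For each test the counts of a group's cells were added up per library, which gave 2 endoderm sums and 3 hypoblast sums. Levels are given as CPM, in which each sum is scaled to 1000000 counts with TMM factors. They are not divided by gene length and are compared between sums, not between genes. No library holds cells of both groups, so day, group and library cannot be told apart. The main fit took in 64 sums of all embryonic groups. Its p-values and standard errors thus measure the spread between sums of the same group over the whole series, not in these sums alone. Whether the libraries hold separate embryos is not in the labels, so that spread may be technical. In a sum, fewer cells that use a gene and less RNA per cell cannot be told apart.

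The endoderm cells were shallower, with a median of 145898 counts and 7611 detected genes against 379282 counts and 9170.5 genes in the hypoblast. The endoderm sums held 2383864 (P8) and 2889056 (P10) counts and the hypoblast sums 9811241 to 17926047. Mitochondrial transcripts took 2.81% and 4.35% of the endoderm sums and 1.78% to 2.0% of the hypoblast sums, and spike-in RNA 2.91% and 3.72% against 0.68% to 2.61%. The part of these differences in the results below was not tested. Of the 31 barcode sequences of the endoderm cells, 26 also occurred among the 76 of the hypoblast, in other libraries.

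The cells called endoderm carried genes used here as hypoblast markers, some of which definitive endoderm shares. The CPM of that list added up to 8527 and 8949 in the endoderm and to 6609, 6823 and 7799 in the hypoblast. In Defi_Endoderm they added up to 3060, 8458 and 5087 in P11, P18 and P19. GATA4, GATA6, PDGFRA, SOX17, LAMA1, LAMB1, LAMC1, COL4A1 and COL4A2 all stood at 66.1 CPM or more in both endoderm sums. The primitive streak gene TBXT was at 0 in both endoderm sums and in all 3 hypoblast sums, but it is only 1 member of its list. Of 19 streak and mesoderm genes measured, 2 had both endoderm sums above the hypoblast, EOMES among them, and 2 both below. HAND1 and MESP1 were higher in the E12 sum than in the E11 sum, as given below. Across all 22984 genes, edgeR's quasi-likelihood test, adjusted after Benjamini and Hochberg, called 0 genes between the endoderm and the hypoblast, while 1951 genes (8.49%) had an unadjusted p under 0.05. DESeq2 called 147 of the 16293 genes to which it gave an adjusted p (0.902%), limma 198, and edgeR fitted to these 5 sums alone 78 of 14535 (0.537%), so a count of 0 does not show that the groups are alike. Without P10 the count was 1, the receptor tyrosine kinase TEK.

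The values below that set endoderm against hypoblast are therefore levels, most of them without a passed test. Over all genes 9.82% had both endoderm sums above the 3 hypoblast sums and 19.6% both below, and the median difference was -0.12 on the log2 scale (0.00 with DESeq2 size factors). These shares are the background for the counts of each list.

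Endoderm transcription factors were present on both sides and not uniformly lower or higher. Of 15 measured, 3 lay above the hypoblast without overlap, FOXA1 and FOXA3 among them, and 3 below (GATA6, SOX17 and KLF5), and the median difference was -0.05. GATA4, a zinc finger factor that directs hypoblast formation, stood at 159 and 141 CPM in the endoderm sums of P8 and P10 and at 133, 152 and 153 in the hypoblast sums of P5, P6 and P16. The sums overlapped, and the log2 difference was 0.05 ± 0.74 (SE; edgeR's quasi-likelihood test, adjusted p = 1.00).

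GATA6, the partner of GATA4 that acts earliest in the hypoblast, stood at 111 and 92.0 CPM in the endoderm sums and at 157, 182 and 171 in the hypoblast sums. Both endoderm sums were below all hypoblast sums, with a log2 difference of -0.74 ± 0.61 (adjusted p = 0.778, edgeR). SOX17, an HMG-box factor shared by hypoblast, definitive endoderm and germ cells, stood at 88.2 and 66.1 CPM against 166, 210 and 175. These sums did not overlap either, at -1.25 ± 1.13 (adjusted p = 0.800, edgeR). In the hypoblast of E7, partly from P8 like the E11 endoderm, SOX17 was at 66.7 and 75.8 CPM, near the endoderm levels. KLF5, a zinc finger factor of early lineages, stood at 78.3 and 38.7 CPM against 187, 220 and 232 (-1.87 ± 0.65, adjusted p = 0.373, edgeR).

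HNF4A, a nuclear receptor that drives liver and yolk sac secretory genes, differed between the 2 endoderm sums, at 80.2 CPM in P8 and 254 in P10, against 86.6, 105 and 64.8 in the hypoblast. FOXA2, a forkhead factor of endoderm and node, stood at 115 and 54.7 CPM against 59.4, 76.6 and 35.5, so the groups overlapped. FOXA1, its relative of later gut endoderm, was low on both sides, at 7.97 and 22.7 CPM against 3.45, 5.40 and 4.38, and both endoderm sums were higher.

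**Figure D1:**
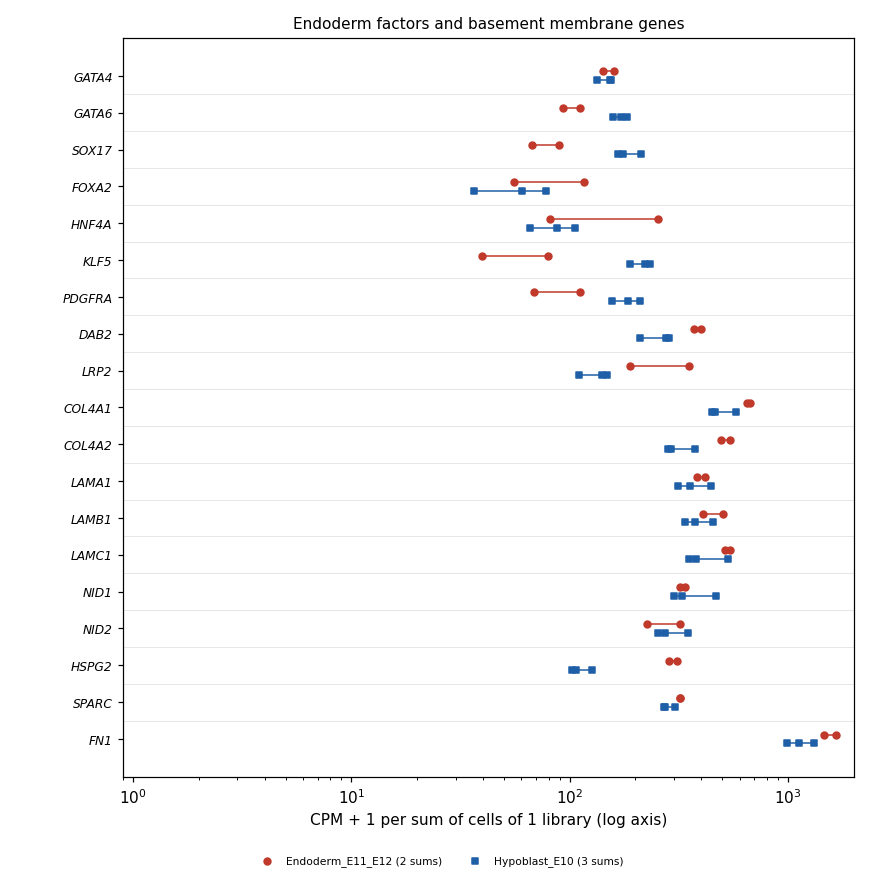
Levels of endoderm factors, receptors and basement membrane genes in the 2 endoderm sums (red circles) and 3 hypoblast sums (blue squares), as CPM + 1 on a log axis, with a line over the range of each group. The factors lie near each other, GATA6, SOX17 and KLF5 lower in both endoderm sums, and HSPG2 and COL4A2 higher.

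Genes of the basement membrane kept high levels, and none of them had both endoderm sums below the hypoblast. Of 17 measured, 8 had both sums above it (COL4A1, COL4A2, COL4A5, COL18A1, HSPG2, SPARC, FN1 and TINAGL1), and the median difference was 0.41. COL4A1, the chain of type IV collagen that forms the sheet with COL4A2, stood at 671 and 649 CPM in the endoderm sums and at 447, 462 and 579 in the hypoblast sums. The log2 difference was 0.41 ± 0.57 (adjusted p = 0.892, edgeR). HSPG2, which encodes the heparan sulfate proteoglycan perlecan, stood at 310 and 283 CPM against 101, 106 and 126. It had a log2 difference of 1.42 ± 0.75 (adjusted p = 0.622, edgeR), with an adjusted p of 0.0387 in the fit of the 5 sums alone.

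The laminin chain LAMA1 overlapped, at 414 and 382 CPM against 311, 356 and 444. NID2, which links laminin to collagen, overlapped too, at 226 and 320 CPM against 254, 272 and 349. It had been at 12.4 and 5.11 CPM in the hypoblast of E7, so its level on E11 and E12 was that of the later hypoblast. FN1, fibronectin, was at 1465 and 1650 CPM against 987, 1124 and 1315. DAB2, the clathrin adaptor of endocytic endoderm, was at 370 and 400 CPM against 274, 283 and 209, and its cargo receptor LRP2, megalin, at 188 and 352 CPM against 140, 109 and 147. For both genes the endoderm sums were above all hypoblast sums.

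Among the 22 measured hypoblast markers 9 had both endoderm sums above and 4 both below the hypoblast (PDGFRA, GATA6, SOX17 and FST), with a median difference of 0.28. PDGFRA, the PDGF receptor by which primitive endoderm is commonly recognised, stood at 67.5 and 110 CPM against 156, 208 and 183 (-1.04 ± 0.57, adjusted p = 0.637, edgeR). Of 12 parietal endoderm markers, 4 had both sums above and 3 both below, with a median of 0.21. PTH1R, the parathyroid hormone receptor of parietal endoderm, was at 96.6 and 248 CPM against 95, 119 and 74.2, and the groups overlapped.

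A list of yolk sac and visceral endoderm genes, many of them for secreted plasma proteins that liver and yolk sac share, lay mostly above the hypoblast. The list also holds genes of proteins that are not secreted, such as LRP2, FOLR1, MTTP and SLC39A5. Of 30 measured, 18 had both endoderm sums above all hypoblast sums and 1, the folate receptor FOLR1, both below, beside 9.82% and 19.6% of all genes. The median difference was 1.36, against -0.12 over all genes. The CPM of the list added up to 10614 and 8588 in the endoderm and to 5737, 5327 and 5951 in the hypoblast. The test called none of its members, and 9 had an unadjusted p under 0.05.

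The apolipoproteins of high-density lipoprotein were abundant on both sides. APOA1, its main protein, stood at 5185 and 4061 CPM in the endoderm sums and at 3189, 3199 and 3796 in the hypoblast sums. APOA2 was at 1273 and 669 CPM against 655, 584 and 542, and APOM at 351 and 209 CPM against 138, 136 and 117. All 3 genes had both endoderm sums above the hypoblast, with the P10 sum of APOA2 only just above. APOC3, a regulator of lipoprotein lipase, stood at 1037 and 494 CPM against 276, 106 and 241 (1.88 ± 1.02, adjusted p = 0.629, edgeR), and at 742 and 1210 CPM in the hypoblast of E7. APOB, the scaffold of very-low-density lipoprotein, was at 26.7 and 31.6 CPM against 3.55, 2.0 and 1.35 (3.66 ± 1.28, adjusted p = 0.380, edgeR). Only 3 of 13 cells of E11 and 9 of 18 of E12 had a count of APOB, and 1 cell held 49.1% and 47.2% of the counts.

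RBP4, the plasma carrier of retinol, had one of the widest gaps. It stood at 697 and 509 CPM in the endoderm sums and at 51.2, 3.56 and 13.7 in the hypoblast sums. The log2 difference was 4.73 ± 1.48 (adjusted p = 0.334, edgeR), and the adjusted p ran from 1.43e-15 to 0.777 over the alternatives tried. FFAR4, a receptor for fatty acids that neighbours RBP4 in the reference annotation, stood at 452 and 343 CPM against 34.8, 4.29 and 6.07. If the genes overlap, their reads cannot be told apart, since the sources used here do not say whether counting used strand. Embryonic cells also held RBP4, at 80.9 and 74.7 CPM in Epiblast_E10 and 63.1, 71.8 and 85.7 in the ectoderm of E11 and E12. In the hypoblast of E7 it was at 39.4 CPM in P8, the library of the E11 endoderm, and at 1.31 in P9.

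After each cell was thinned to 24000 counts, RBP4 was counted in 13 of 13 endoderm cells of E11, 17 of 18 of E12 and 19 of 89 hypoblast cells (21.3%, 95% Clopper-Pearson interval 13.4% to 31.3%, counting error only). One hypoblast cell was too shallow to be thinned. Without thinning the counts were 13 of 13, 18 of 18 and 53 of 90. In Epiblast_E10, a cell type with its own low level, the thinned share was 74.0%, above that of the hypoblast. The median depths before thinning were 168415 and 107016 counts in the endoderm of E11 and E12, 379282 in the hypoblast and 600400 in the epiblast.

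FETUB, a fetuin that inhibits proteases, stood at 190 and 370 CPM in the endoderm sums and at 6.22, 2.34 and 12.8 in the hypoblast sums. The log2 difference was 5.30 ± 1.29 (adjusted p = 0.131, edgeR), with an adjusted p of 0.0337 in the fit of the 5 sums and 0.0240 by DESeq2. It was at 208 and 135 CPM in the hypoblast of E7, and the 208 came from library P8, which also holds the E11 endoderm. SELENOP, the plasma carrier of selenium, stood at 295 and 381 CPM against 63.4, 65.2 and 32.5 (2.65 ± 0.81, adjusted p = 0.313, edgeR). The fibrinogen chain FGB stood at 58.2 and 154 CPM against 2.96, 1.67 and 2.28 (5.53 ± 1.47, adjusted p = 0.186, edgeR), with adjusted p values of 0.0160 in the fit of the 5 sums and 0.0452 by DESeq2. FGB was counted in 5 of 13 cells of E11 and 14 of 18 of E12, and 1 cell held 42.7% and 36.4% of the counts. It was also counted in 15 of 20 mesoderm cells of E12, from the same library P10.

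For FGA, the partner chain of FGB, the sums were at 5.63 and 4.97 CPM in the endoderm and at 0 in all 3 hypoblast sums. TF, transferrin, was at 45.5 and 85.2 CPM against 6.41, 0.946 and 2.19 (4.36 ± 1.41, adjusted p = 0.340, edgeR). A single cell held 69.1% of the TF counts of the E11 endoderm and 1 cell 65.8% of those of E12. The annotation gives the symbol TF to a pair of neighbouring genes on chromosome 13, so the copy is uncertain. F2, prothrombin, stood at 54.9 and 51.9 CPM against 6.71, 9.29 and 8.01 (2.73 ± 0.92, adjusted p = 0.349, edgeR).

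The classical proteins of mature yolk sac and liver were barely counted. AFP, alpha-fetoprotein, was at 6.10 CPM in P8 and 0 in P10, against 0, 0 and 1.35 in the hypoblast. ALB, albumin, was at 6.10 and 0 against 0.493, 0.501 and 0.590 CPM. TTR, which carries thyroxine and RBP4, was at 11.7 and 2.84 CPM against 1.38, 0.612 and 0.0843. All 3 were within a few CPM in every hypoblast sum, and AFP and ALB were at 0 in the E12 sum.

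**Figure D2:**
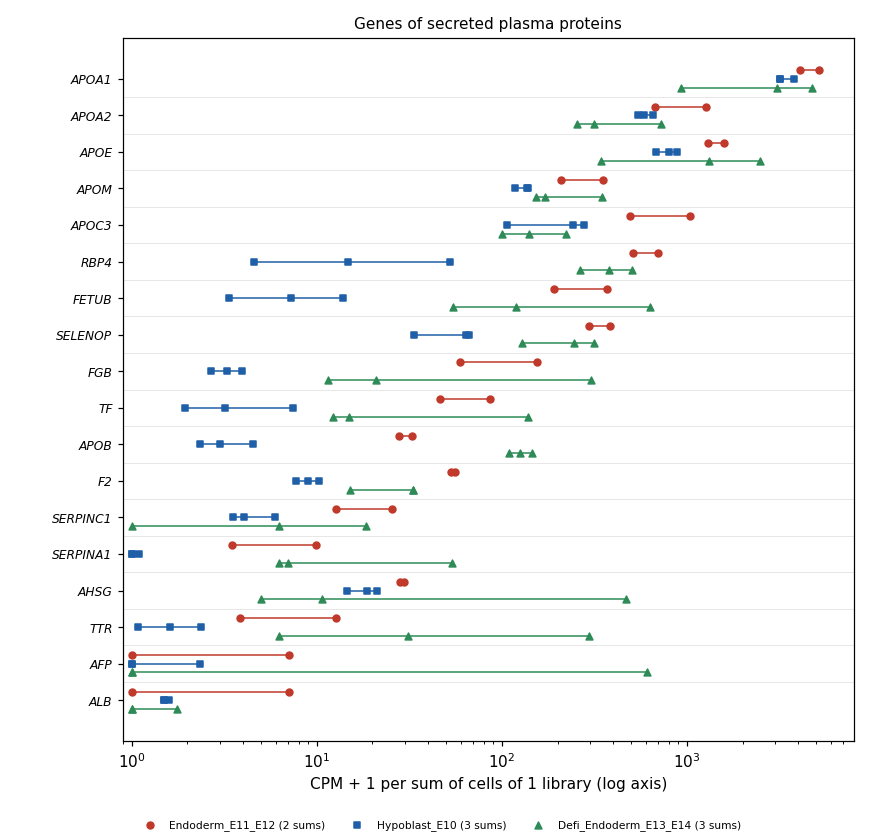
Levels of genes of secreted plasma proteins in the sums of the endoderm (red circles), the hypoblast of E10 (blue squares) and Defi_Endoderm of E13 and E14 (green triangles), as CPM + 1 on a log axis. RBP4, FETUB, FGB and SELENOP have both endoderm sums well above the hypoblast, while AFP and TTR are near the left edge in the hypoblast and reach 606 and 294 CPM in the P11 sum of Defi_Endoderm.

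Signals of the hypoblast followed no single direction. Of 15 anterior hypoblast signals, 5 had both endoderm sums above the hypoblast (CER1, SFRP1, SFRP5, BMP2 and EOMES) and 1, DKK1, both below, with a median difference of 0.88. DKK1, a secreted WNT inhibitor of anterior hypoblast, stood at 76.4 and 21.0 CPM in the endoderm sums and at 353, 436 and 416 in the hypoblast sums (-3.05 ± 1.21, adjusted p = 0.447, edgeR). In thinned cells it was counted in 3 of 13, 7 of 18 and 86 of 89 cells (96.6%) of E11, E12 and the hypoblast. DKK1 was near 0 in the hypoblast of E7 (0.784 and 0 CPM) and at 168 CPM on E9, so among E7, E9 and E10 it was highest on E10.

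BMP2, a ligand that visceral endoderm sends to the epiblast, was at 191 and 261 CPM in the endoderm against 93.0, 88.4 and 114. WNT11 was at 99.9 and 194 CPM against 35.8, 23.2 and 62.9, and RSPO3, which amplifies WNT signalling, at 236 and 171 CPM against 62.1, 27.7 and 121. All 3 ligands had both endoderm sums above the hypoblast. IGF1, a growth factor, overlapped, at 146 and 70.7 CPM against 114, 150 and 99.2, and had been at 0.882 and 2.14 CPM on E7. Of 24 WNT genes 4 had both sums above and 3 below (median 0.64), of 21 BMP genes 3 and 1 (median -0.01), of 18 Nodal genes 3 and 6 (median -0.03), and of 22 FGF and PDGF genes 3 and 6 (median 0.41).

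Genes that handle retinoids were mostly at or above the hypoblast level. Of 16 measured, 7 had both endoderm sums above and 1 both below, with a median of 0.68. CRABP2, which binds retinoic acid inside the cell, was at 72.7 and 98.7 CPM against 27.9, 54.7 and 31.5. RDH10, which begins the oxidation of retinol, was the member below, at 81.6 and 93.4 CPM against 121, 130 and 161.

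**Figure D3:**
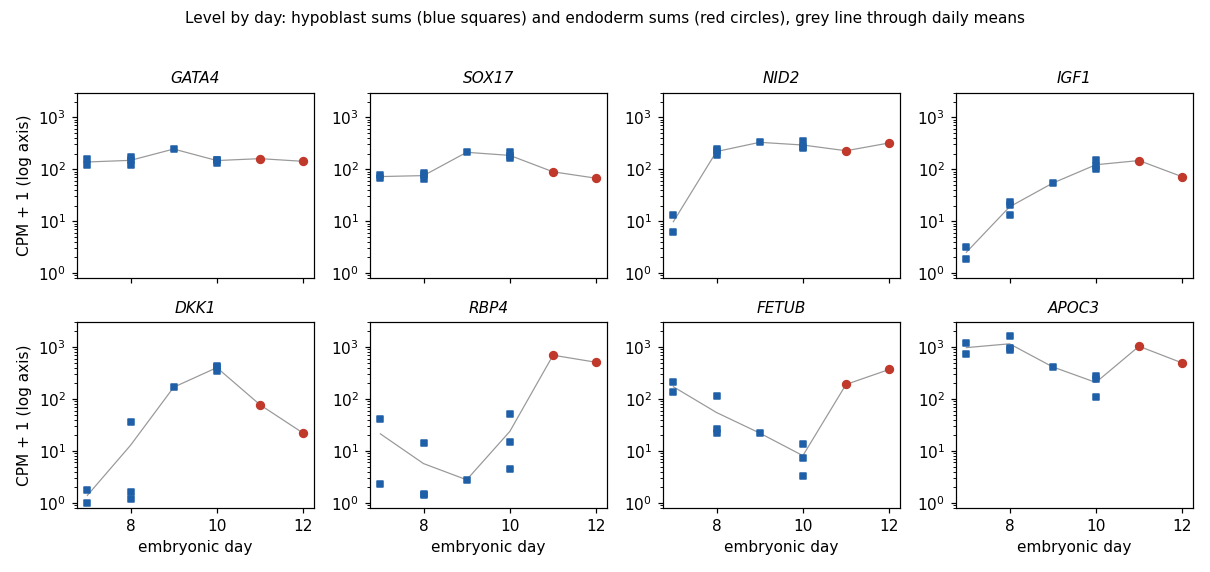
Level of 8 genes by embryonic day in hypoblast sums of E7 to E10 (blue squares) and in the endoderm sums of E11 and E12 (red circles), as CPM + 1 on a log axis, with a grey line through the mean of each day. GATA4 stays between 119 and 244 CPM, NID2 and IGF1 are lowest on E7, DKK1 is highest on E10, and FETUB and RBP4 are higher on E11 and E12 than on E10.

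By size alone, 12 genes per direction with at least 50 CPM were taken after their values were seen, without regard to the adjusted p. Besides FGB, FETUB, RBP4, FFAR4 and TF, those higher in the endoderm included SOD3, an extracellular superoxide dismutase, at 61.9 and 118 CPM against 3.75, 0.946 and 0.337 (5.75 ± 1.21, adjusted p = 0.0874, edgeR). ALOX15, a lipoxygenase, was at 66.1 and 130 CPM against 4.84, 0.946 and 1.18 (5.40 ± 1.24, adjusted p = 0.123, edgeR). SLC16A9, a solute carrier, was at 80.7 and 215 CPM in the endoderm. TEK, the angiopoietin receptor, stood at 100 CPM in P8 and 3.91 in P10 against 0.987, 1.34 and 0.843, and XKRX at 99.4 and 4.26, so both rested on the E11 sum.

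Among the lower genes SYTL2, which binds vesicles, stood at 0.469 and 1.07 CPM against 53.5, 51.3 and 72.6 (-6.19 ± 1.26, adjusted p = 0.0664, edgeR). The zinc finger factor KLF4 stood at 6.57 and 0.355 CPM against 70.0, 80.6 and 80.8 (-4.56 ± 1.05, adjusted p = 0.123, edgeR). MYC was at 18.3 and 2.49 CPM against 102, 93.4 and 140. The small heat shock proteins CRYAB and HSPB8 were at 10.8 and 0.710 CPM against 215, 242 and 103, and at 8.44 and 0.710 CPM against 125, 119 and 105. Of these 24 genes, SOD3, FGB, ALOX15, FETUB, SYNPO2, SYTL2, CRYAB, HSPB8 and NR4A1 were called in the fit of the 5 sums alone.

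Several of the lower genes respond quickly to stress and handling, and a list of such genes moved with them. Of 14 measured genes of dissociation stress, 10 had both endoderm sums below the hypoblast and 1, HSPA8, both above, with a median difference of -1.66. EGR1, an immediate early gene, was at 22.0 and 1.78 CPM against 94.1, 106 and 138, and ATF3 at 35.2 and 37.6 CPM against 173, 161 and 208. FOS was at 130 and 13.5 CPM against 212, 239 and 641. The part of handling in the lower levels of KLF4, MYC, CRYAB and HSPB8 was not tested. All 13 protein-coding genes of the mitochondrial genome lay the other way, with both endoderm sums above the hypoblast, a median difference of 1.05 and unadjusted p under 0.05 in each, while 17 nuclear genes of oxidative phosphorylation had a median of 0.28.

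Markers of other cell types were measured in the same sums. The list of streak and mesoderm genes added up to 314 and 422 CPM in the endoderm and 430, 433 and 489 in the hypoblast, with 9 members under 5 CPM and 3 at 0 in both endoderm sums, TBXT among the latter. Trophectoderm genes added up to 3115 and 3082 CPM against 2126, 1559 and 1510, most of it the keratins KRT8 (1771 and 1673 CPM) and KRT18 (1091 and 1095 CPM), which endoderm also expresses. GATA2, a trophectoderm factor, was at 33.3 and 38.7 CPM against 384 in TE_E12, the trophectoderm cells of P10. Genes of epiblast and ectoderm added up to 451 and 708 CPM against 410, 453 and 566, and those of blood and endothelium to 325 and 173 against 169, 245 and 276.

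Fibroblast genes added up to 72.0 and 114 CPM against 40.0, 45.0 and 32.0, those of amnion to 101 and 270 against 101, 123 and 76.0, and those of germ cells to 317 and 354 against 386, 350 and 315. The P10 endoderm was the higher of the endoderm sums for the epiblast, amnion and mesoderm lists. The part of other cell types in the results was not tested.

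To ask which genes set each endoderm apart from the embryo proper of its own days, the hypoblast was set against Epiblast_E10 and the endoderm against the ectoderm of E11 and E12. These comparisons share no sum, although P6 holds cells of both Hypoblast_E10 and Ectoderm_E11. In the first, 1376 genes (5.99%) passed edgeR's quasi-likelihood test at an adjusted p under 0.05, 662 higher (2.88%) and 714 lower (3.11%) in the hypoblast. In the second, 547 (2.38%) passed, 375 higher (1.63%) and 172 lower (0.748%) in the endoderm. By DESeq2 the balance in the second was 734 higher and 772 lower. Of the genes higher in each, 252 were shared, 38.1% of the hypoblast's and 67.2% of the endoderm's. None of the 662 hypoblast genes was called lower in the endoderm, and 613 of them had a higher level there than in the ectoderm. Their median difference was 1.95, against -0.18 over all genes. The same count was not made for Defi_Endoderm, so this sharing is not shown to be particular to the hypoblast. Of the genes lower in each, 103 were shared, 14.4% of the hypoblast's 714 and 59.9% of the endoderm's 172, and 1 of the 714 was called higher in the endoderm.

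Without a library the hypoblast count ran from 354 (without P16) to 680 (without P5), with 469 without P15. The endoderm count was 100 without P10, 158 without P8, 190 without P7 and 246 without P6. The counts thus depend on each library, and the genes named next as passing in every such fit are marked as such.

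Most of the measured basement membrane genes passed on either side. Of 17 basement membrane genes 11 were higher in the hypoblast than in the epiblast and 11 higher in the endoderm than in the ectoderm, and none was lower in either. In the endoderm the count was 5 without P10, 8 without P8, 6 without P7 and 9 without P6. In the hypoblast it was 6 without P15, 7 without P16 and 11 without P5 or P6. COL4A1 was higher in the hypoblast by 3.50 ± 0.67 on the log2 scale (edgeR, adjusted p = 0.000551) and in the endoderm by 3.00 ± 0.59 (edgeR, adjusted p = 0.00173). DAB2 was higher in the endoderm by 3.52 ± 0.48 (edgeR, adjusted p = 1.40e-05). COL4A1, COL4A2, LAMA1, LAMB1, DAB2, LRP2, APOM and the gap junction gene GJB1 passed on both sides without each library in turn.

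Of 15 endoderm transcription factors, 7 were higher there than in the epiblast, among them GATA4, GATA6, SOX17, FOXA2, HNF4A and KLF5, and 2 were higher in the endoderm than in the ectoderm, HNF4A among them. The difference between these counts was not tested. The endoderm count fell to 0 without P10, P7 or P8 and to 1 without P6, and the hypoblast count to 2 without P15, 5 without P16 and 6 without P5 or P6. GATA4 and GATA6 passed in the hypoblast in every such fit, at 6.22 ± 1.00 (edgeR, adjusted p = 6.73e-05) and 6.23 ± 0.81 (edgeR, adjusted p = 3.47e-06).

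GATA6 was 1 of 3 genes (0.0131% of 22984) for which the difference between these comparisons itself passed, 1 with a higher (0.00435%) and 2 with a lower difference (0.00870%) on E11 and E12, while 1475 genes (6.42%) had an unadjusted p under 0.05. It stood at 63.1, 73.7 and 14.5 CPM in the ectoderm sums of P6, P7 and P10, but at 1.36 and 3.18 in the epiblast sums. The endoderm sums, at 111 and 92.0 CPM, were therefore nearer to their embryonic neighbours than the hypoblast sums were to theirs. The change of the difference was -5.21 ± 0.95 (edgeR, adjusted p = 0.0167). It was lost without P10 (adjusted p = 0.0634), P15 (0.557), P16 (0.0954), P6 (0.115), P7 (0.152) or P8 (0.233).

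Of the 30 yolk sac and visceral endoderm genes 9 were higher in the hypoblast than in the epiblast. Against the ectoderm 12 were higher in the endoderm, and none was lower in either comparison. The 12 were APOA1, APOA2, APOB, APOC3, APOM, TF, SERPINC1, FGB, MTTP, LRP2, FOLR1 and the zinc transporter SLC39A5. Their number was 3 without P10 or P7, 5 without P8 and 7 without P6, and the hypoblast's was 2 without P15, 5 without P16 and 7 without P5 or P6. APOB was higher in the endoderm by 5.93 ± 1.46 (edgeR, adjusted p = 0.0172). That the count is larger in the endoderm was not tested.

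Among the 12 genes named by size as higher in the endoderm than in the ectoderm, 4 passed without each library in turn. SLC7A9, an amino acid transporter of absorptive epithelium, stood at 227 and 213 CPM in the endoderm (5.86 ± 1.05 above the ectoderm, edgeR, adjusted p = 0.000689). GJB1, which forms gap junctions, stood at 206 and 224 CPM (5.35 ± 1.05, adjusted p = 0.00185, edgeR). FBXO39 stood at 203 and 135 CPM, and at 134, 128 and 137 in the hypoblast (6.49 ± 1.10 above the ectoderm, edgeR, adjusted p = 0.000359). AHNAK, a large scaffold protein, stood at 67.5 and 88.4 CPM, beside 79.8, 87.1 and 86.1 in the hypoblast (5.23 ± 0.90 above the ectoderm, edgeR, adjusted p = 0.000460).

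Other genes of this size were BMP2, at 5.28 ± 1.05 (edgeR, adjusted p = 0.00191, and 0.0916 without P10), and ANKS4B, a protein of brush borders, at 5.62 ± 1.07 (edgeR, adjusted p = 0.00132). ANKS4B stood at 67.5 and 73.2 CPM in the endoderm and 101, 105 and 84.6 in the hypoblast. Lower in the endoderm than in the ectoderm were SLC7A3, a carrier of cationic amino acids, at 7.50 and 9.59 CPM against 147, 203 and 123 (-4.20 ± 0.74, edgeR, adjusted p = 0.000575), and SLC1A4, at 0 in both endoderm sums against 99.1, 66.0 and 11.6. Both passed without each library in turn.

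The authors' Defi_Endoderm groups begin at E13, so the endoderm of E11 and E12 was set against the E13 and E14 sums, a comparison added after the data were seen. Here 326 genes (1.42%) passed edgeR's quasi-likelihood test, 201 higher (0.875%) and 125 lower (0.544%) in the E11 to E12 endoderm. By DESeq2 478 were higher and 761 lower, so the balance of directions depended on the tool. The count was 28 without P8, 118 without P10, 217 without P18, 210 without P19 and 428 without P11. Day, group and library again cannot be told apart, and the Defi_Endoderm sums of P18 and P19 hold 5 and 7 cells. The E14 sum of P11 also held 1029 CPM of the fibroblast and extraembryonic mesoderm list and 682 of the amnion list, against 86 to 114 and 214 to 292 in P18, P19 and the E12 endoderm, and the part of these in the results was not tested.

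Of the genes named as higher than in Defi_Endoderm, 5 passed without each library in turn. PAQR8, a membrane progestin receptor, stood at 403 and 324 CPM in the endoderm sums and at 17.2, 2.0 and 1.49 in the Defi_Endoderm sums of P11, P18 and P19, beside 342, 340 and 359 in the hypoblast. The log2 difference from Defi_Endoderm was 5.33 ± 0.89 (edgeR, adjusted p = 0.000926). NOSTRIN, an adaptor of endothelial nitric oxide synthase, stood at 56.3 and 72.8 CPM against 0.575, 2.0 and 0, beside 113, 160 and 102 in the hypoblast (6.75 ± 1.28, adjusted p = 0.00270, edgeR). GPX6, a glutathione peroxidase, stood at 1785 and 1323 CPM against 102, 9.99 and 28.4, beside 1496, 1565 and 1041 in the hypoblast (4.91 ± 0.93, adjusted p = 0.00270, edgeR).

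TIE1, an endothelial receptor kinase, stood at 89.1 and 40.8 CPM against 2.68, 2.0 and 2.24, beside 119, 126 and 148 in the hypoblast (4.73 ± 0.82, adjusted p = 0.00126, edgeR). PPP1R14A, an inhibitor of myosin phosphatase, stood at 237 and 168 CPM against 11.5, 0 and 11.2, beside 268, 291 and 248 in the hypoblast (4.49 ± 0.77, adjusted p = 0.00126, edgeR). For these 5 genes every hypoblast sum was also above every Defi_Endoderm sum, while for the endoderm sums this was a condition of naming. The hypoblast was not high for every named gene. RHEX and NXNL1, not called without P8, were at 12.5, 2.18 and 2.44 and at 13.9, 22.8 and 1.34 CPM there, without TMM scaling. They were at 103 and 480 CPM in the E11 endoderm and 1.73 and 2.08 in that of E12.

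Among basement membrane genes LAMA1 and TINAGL1 were higher and COL4A6 lower than in Defi_Endoderm, and among hypoblast markers LAMA1 and DAB2 were higher and none lower. The number of basement membrane genes called was 0 without P8, 1 higher without P10 or P19, 2 higher without P18 and 4 higher without P11, and the COL4A6 call was lost whichever library was left out (adjusted p from 0.0563 to 0.404, edgeR). LAMA1 was at 68.4, 67.9 and 47.8 CPM in Defi_Endoderm, and the difference was 2.7 ± 0.63 (edgeR, adjusted p = 0.0156). Its adjusted p was 0.151 without P8 and 0.0543 without P19. The number of hypoblast markers called was 0 without P8, 1 without P10, P18 or P19 and 5 without P11. None of the 30 yolk sac and visceral endoderm genes passed by edgeR, 7 had an unadjusted p under 0.05 and DESeq2 called 1. Of the 30, 6 had both endoderm sums above and 1 both below (beside 11.5% and 5.73% of all genes). The list added up to 5030, 9271 and 5554 CPM in Defi_Endoderm.

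Of 21 definitive endoderm markers, 4 were lower in the E11 to E12 endoderm than in Defi_Endoderm (CXCR4, FRZB, HHEX and OTX2) and none was higher. Leaving out P8, P10, P18 or P19 brought this count to 0. Without P11 a count of 4 was reached with a different set, since CXCR4 did not pass there (adjusted p = 0.0583, edgeR). CXCR4, the chemokine receptor used to sort definitive endoderm, stood at 12.2 and 5.68 CPM in the endoderm sums, at 8.98, 11.7 and 5.90 in the hypoblast sums, and at 60.7, 71.9 and 90.4 in the Defi_Endoderm sums. All 3 Defi_Endoderm sums were above the rest, and the endoderm's difference from them was -3.07 ± 0.84 (edgeR, adjusted p = 0.0479). The CXCR4 call was lost whichever library was left out, with adjusted p from 0.0583 to 0.297.

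HHEX and OTX2, homeobox factors of anterior endoderm, split the Defi_Endoderm sums. HHEX stood at 7.97 and 14.2 CPM in the endoderm and at 10.2, 170 and 189 in Defi_Endoderm, where the E14 sum of P11 lay within the endoderm range (-3.44 ± 0.88, adjusted p = 0.0312, edgeR). OTX2 stood at 28.1 and 8.88 CPM against 9.39, 373 and 185, with the same split (-3.33 ± 0.82, adjusted p = 0.0241, edgeR). FRZB, a secreted WNT antagonist, was at 1.41 and 1.78 CPM against 7.85, 65.9 and 259 (-6.10 ± 1.66, adjusted p = 0.0459, edgeR). LHX1, a factor of streak and anterior endoderm, was at 0 and 1.42 CPM against 5.17, 202 and 33.6, and did not pass (adjusted p = 0.0662, edgeR).

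Between endoderm and hypoblast, 4 of the 21 definitive endoderm markers had both endoderm sums above (FOXA1, CER1, EOMES and TMPRSS2) and 2 both below (SOX17 and KIT), with a median difference of 0.57. The list added up to 1070 and 891 CPM in the endoderm and 963, 886 and 1069 in the hypoblast. In the endoderm 8 members were under 5 CPM and 2 at 0 in both sums. Of 16 gut tube markers 1 had both sums above and 2 both below, with a median of -0.72.

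**Figure D4:**
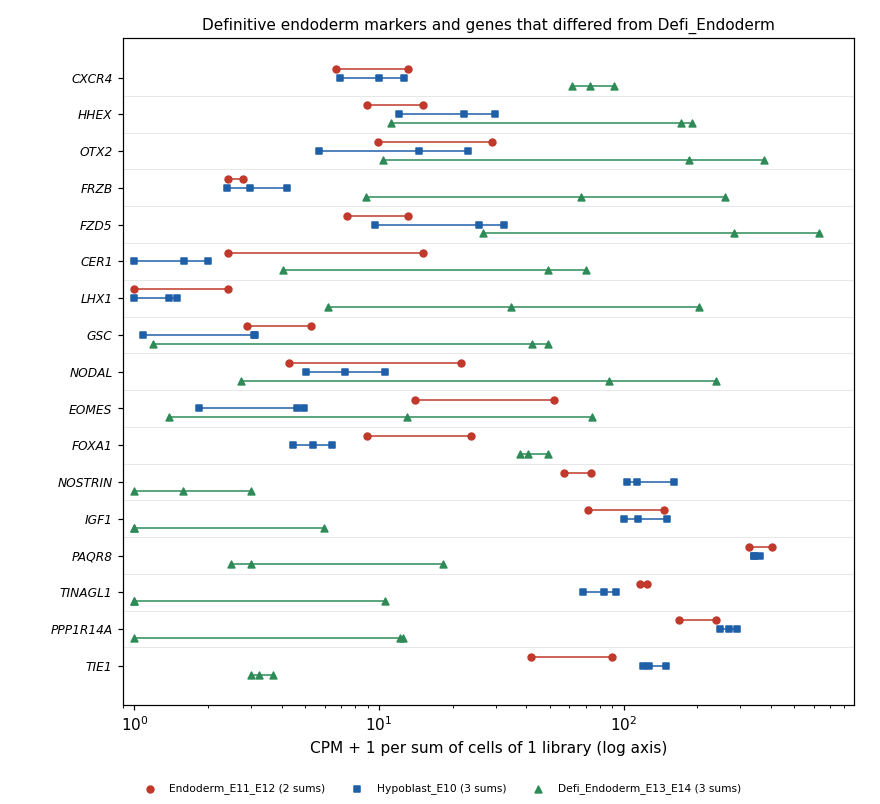
Levels of definitive endoderm markers and of genes that differed from Defi_Endoderm, in the sums of the endoderm (red circles), the hypoblast (blue squares) and Defi_Endoderm (green triangles), as CPM + 1 on a log axis. CXCR4 is higher in all 3 Defi_Endoderm sums, HHEX, OTX2 and FRZB in the E13 sums most, while NOSTRIN, PAQR8 and PPP1R14A are high in endoderm and hypoblast alike.

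Single cells were compared with the pooled profiles of 27 authors' groups of E7 to E14, by Spearman's rho across the 2000 genes that varied most between groups. This is a description without a test, since genes are not independent replicates and cells of a group share a library. With the Endoderm profiles left out, 22 of 31 cells were nearest to Hypoblast_E10 and 26 of 31 to a hypoblast group of any day. With them included, 30 of 31 were nearest to their own group. All 13 cells of E11 had a higher rho with Hypoblast_E10 than with Defi_Endoderm_E13, as did 16 of 18 cells of E12. The pooled profiles differed in size. Hypoblast_E10 pools 90 cells and 40426521 counts, and Defi_Endoderm_E13 12 cells with 555291 counts in P18 and 1465657 in P19. The part of pool size in rho was not tested.

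The cells of E11 had a median rho of 0.542 with Hypoblast_E10 and 0.271 with Defi_Endoderm_E13, and those of E12 0.431 and 0.347. A higher rho than with Defi_Endoderm_E13 was not particular to the hypoblast. E11 cells had medians of 0.441 with TE_E7 and 0.364 with Epiblast_E7, both partly from P8, and 0.382 with TE_E10. E12 cells had a median of 0.383 with TE_E12. Other groups were below Defi_Endoderm_E13, such as Ectoderm_E12 for E11 cells (0.162). For E11 cells the medians with the earlier hypoblast were close to that with E10, at 0.526 (E8), 0.518 (E9) and 0.517 (E7, whose cells partly come from the same library, P8). Hypoblast_E10 cells had a median of 0.705 with their own profile. Of the 18 cells of E12, 10 were nearest to Hypoblast_E10, 3 to Hypoblast_E9, 1 to Defi_Endoderm_E13 and 4 to Mesdoderm_E12, a group spelled as the authors spell it and from the same library, P10. The median rho of E12 cells with Mesdoderm_E12 was 0.411, close to that with the hypoblast, against 0.236 for E11 cells. The number nearest to Hypoblast_E10 was 13 with 500 genes, 13 with profiles of mean log values and 12 with Pearson's r, and the number nearest to any hypoblast group was 20 with 500 genes.

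**Figure D5:**
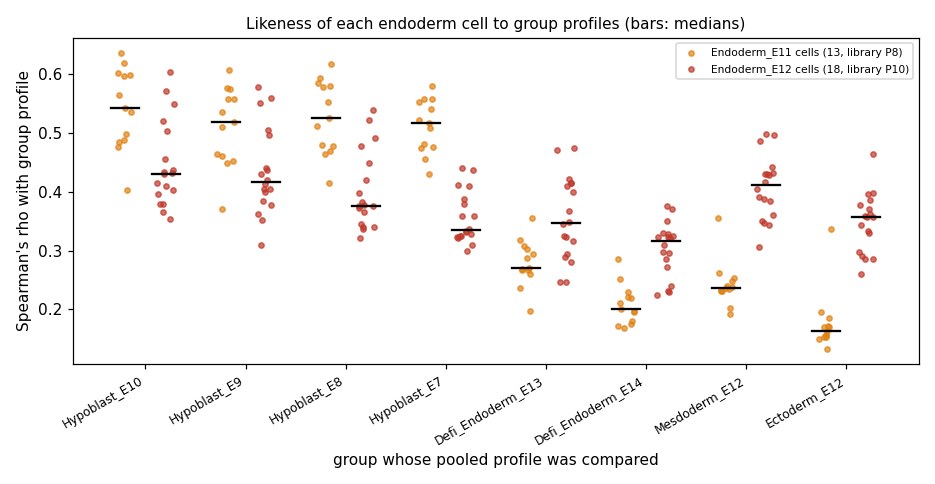
Spearman's rho of each endoderm cell with the pooled profile of 8 groups, for the 13 cells of E11 (orange) and the 18 cells of E12 (red), with bars at the medians. E11 cells have medians of 0.517 to 0.542 with the 4 hypoblast groups, and E12 cells have similar medians with Hypoblast_E10 (0.431) and Mesdoderm_E12 (0.411).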

How the data were processed

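Single-cell RNA was measured in 22 libraries with 1647 cells. The deposited count table holds raw counts of 29214 pig genes and 92 spike-ins per cell, per the file headers. Per the submitters' processing notes the build was Sscrofa11.1 and the tools were UMI-tools, featureCounts 1.6.4 and STAR 2.7.1a, with no order stated. A second deposited table gives each of the authors' 39 groups' means over cells of log2(CPM/10 + 1), and a further one the standard deviations, per the file headers; where several columns belong to the same samples the unit was recorded as other. Library totals ran from 7415760 to 39405309 counts. Spike-ins were left out of every comparison.

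Cells were assigned to the authors' groups by least squares of the deposited means, keeping weights above 0.5 of a group's maximum. Each of the 1647 cells fell in 1 group, and at least 93.11% of the means and 99.82% of the standard deviations were then within 0.001 of the deposited values. Sums over the cells of 1 group and 1 library needed at least 5 cells, or at least 3 in groups with too few such sums. The 64 sums and 22984 genes kept by filterByExpr entered 1 fit with edgeR 4.0.16 in R 4.3.3 (TMM, trended dispersion, quasi-likelihood F-test, Benjamini-Hochberg threshold 0.05). A standard error is the log2 change divided by the square root of F. Because only 1 library holds both groups of the comparisons with epiblast and ectoderm, all sums were used and no library block was fitted, a departure from the design, as is the comparison with Defi_Endoderm of later days. Single days have 1 sum each and were not tested. The members, 26 lists with 363 genes and tests were chosen with earlier results of these data known. The text names list members and, in either direction, the 12 largest changes past the threshold that had no overlap between sums and a mean of at least 50 CPM on the higher side; without a test, at least 50 CPM and 100 counts, with a pseudocount of 1. Alternatives used DESeq2 1.42.0, limma 3.58.1 and other filters and groups. Code was tested on simulated data. Other steps used Python 3.11.15, numpy 2.4.6, pandas 2.3.3, scipy 1.17.1 and matplotlib 3.10.9. Intervals at 95% cover counting error only. Symbols came from the reference table (14800 genes) or else from the authors' table (1057 genes). Sequences were not used here. Some members of the lists are counted but not reported here.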

Additional observations from a re-analysis of the deposited data

Results flagged for a closer look

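A test of the difference between endoderm minus ectoderm at E11 and E12 and hypoblast minus epiblast at E10 passed for 3 genes, by edgeR's quasi-likelihood test. The values are log2 changes of the difference. GATA6 had -5.21 ± 0.95, with the levels given above. MTHFD2, a mitochondrial enzyme of folate metabolism, had -3.26 ± 0.64 (adjusted p = 0.0443, edgeR), with 84.9 and 43.3 CPM in the endoderm, 169, 188 and 162 in the hypoblast, 140, 121 and 40.9 in the ectoderm and 23.7 and 32.8 in the epiblast. Its call was lost whichever library was left out. SYCP1, a protein of the synaptonemal complex of meiosis, had 11.58 ± 1.99 (adjusted p = 0.0114, edgeR), but from low levels, 5.63 and 10.7 CPM in the endoderm, at most 0.197 in the hypoblast, at most 0.121 in the ectoderm and 2.17 and 2.43 in the epiblast. The SYCP1 call was lost without P6, P7, P8, P10 or P16, and SYCP1 was at 55.3 and 112 CPM in the hypoblast of E7, of which the former sum is from P8.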

How the results depend on the processing

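For endoderm against hypoblast the 0 calls of edgeR became 4 with DESeq2 size factors, 147 by DESeq2, 175 with at least 10 cells per sum, 13 with E11 and E12 as separate groups, 198 by limma, 205 with no filter on low counts, 2 without a dispersion trend and 78 with only the compared groups, and, in alternatives added after the data were seen, 8 with cells of at least 6000 genes and 31 with groups of E7 and later. Without 1 library it was 0 to 1. For hypoblast against epiblast the count was 2258 by DESeq2, 2922 with at least 10 cells, 2466 by limma, 5173 with only the compared groups and 354 to 680 without 1 library. For endoderm against ectoderm it was 1506, 1925, 1425 and 1155 in that order, 885 with groups of E7 and later, 1084 with no filter, 241 with no trend and 100 to 246 without 1 library. The difference of these had 79 by DESeq2, 47 with at least 10 cells, 6 with at least 6000 genes, 7 with groups of E7 and later, 183 by limma, 139 with no filter, 0 with no trend, 16 with only these groups and 0 to 2 without 1 library. Against Defi_Endoderm the count was 1239 by DESeq2, 726 with at least 10 cells, 555 with groups of E7 and later, 1024 by limma, 901 with no filter, 127 with no trend, 54 with only these groups and 28 to 428 without 1 library. At least 10 cells per sum left 1 Defi_Endoderm sum, of P11, against which HHEX had 0.05 and OTX2 0.85, the reverse of the values above. Cells nearest to any hypoblast numbered 20 with 500 genes, and those nearest to Hypoblast_E10 13 with 500 genes or mean log profiles and 12 with Pearson's r. Of 680 alternative values for 40 genes of endoderm against hypoblast, 598 stayed on their side of the threshold, 82 passed it and none changed direction. The 40 include the 12 per direction picked by size and without overlap in the same sums. That their direction held is therefore no independent check. The cause of these changes was not tested. No paired analysis was possible because no library holds cells of both groups. Depth limits low genes most, since the endoderm sums are smaller than the hypoblast sums, and the Defi_Endoderm sums of P18 (555291 counts) and P19 (1465657) are smaller still.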

Other observations

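The 2 days of the endoderm also differed, each known from 1 library, so these are values without a test. Higher at E12 in pooled CPM without TMM scaling were the potassium channel domain gene KCTD7 (88.6 against 0), the lipoxygenase ALOX15B (58.5 against 0), the stretch-responsive ANKRD1 (54.0 against 0.419) and NRP1, a coreceptor of VEGF and semaphorins (64.4 against 7.55). Higher at E11 were AMPD1, an AMP deaminase (252 against 0), the coagulation factor F10 (78.0 against 0.346), GADD45B, a stress gene (63.8 against 1.04), and HSPA6, a heat shock protein (213 against 10.0). NXNL1, RHEX, TEK and XKRX were high in the E11 sum and low in that of E12 as well. Other cells of the same library held some of these genes, with F10 at 82.9 CPM in Epiblast_E7 of P8 and NRP1 at 132 in Mesdoderm_E12 of P10. In the same Epiblast_E7 sum AMPD1, GADD45B and HSPA6 were lower, at 8.25, 35.3 and 54.8 CPM. In the same Mesdoderm_E12 sum KCTD7, ALOX15B and ANKRD1 were lower, at 3.07, 1.18 and 15.1 CPM. The part of RNA from other cells was not tested. EIF1AY, a gene of the Y chromosome, stood at 65.4 CPM at E11 against 0.346 at E12. It was at 127, 130 and 47.4 CPM in the hypoblast sums of P5, P6 and P16. In P10 it was at 0 in Mesdoderm_E12, 0.382 in Ectoderm_E12 and 0 in TE_E12. The compared sums may thus differ in embryo sex, which the labels do not give, and its part in the results was not tested.

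The E12 cells of P10 held more of some mesoderm genes than the E11 cells of P8. HAND1, a factor of extraembryonic mesoderm and amnion, stood at 61.1 CPM in the E12 sum and 23.0 in the E11 sum, EOMES at 51.1 and 13.1, and MESP1, a factor of nascent mesoderm, at 22.0 and 0. In Mesdoderm_E12 of the same library the levels were 261, 171 and 283. After thinning to 24000 counts HAND1 was counted in 15 of 18 cells of E12, 2 of 13 of E11 and 8 of 89 of the hypoblast, EOMES in 7, 2 and 7, and MESP1 in 7, 0 and 10. A share of these counts from RNA of other cells in P10 was not tested.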
